A study of Mus musculus with 12 samples.

Results

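Rab genes, which encode small GTPases of membrane traffic, were followed across the striatum of mutant and control mice at 2 ages. Members were all genes whose array annotation symbol starts with Rab and a digit, with the probe set of highest average signal (12 arrays) standing for each symbol. This gave 56 of the 12393 genes with a symbol of their own on the array. By their known functions 50 encode Rab GTPases, 4 encode regulators named after a Rab (Rab3gap2, Rab3ip, Rab3il1 and Rab11fip5), and Rab5if and Rab26os are neither. A value above the array's 40th percentile in at least 3 arrays was required for testing, and 48 members, 43 of them GTPases, met it. The other 8 (Rab3d, Rab17, Rab20, Rab25, Rab26os, Rab27a, Rab37 and Rab38) lay above that percentile in 0 arrays and were not tested.

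Striatal RNA came from C57Bl/6 mice, 3 per group and 1 array per mouse: TIF-IA D1R-Cre mutants aged 9 weeks, controls aged 9 weeks, mutants aged 13 weeks and controls aged 13 weeks. The labels do not say which alleles the controls carried. TIF-IA, the product of Rrn3, is needed by RNA polymerase I to transcribe ribosomal RNA genes. Cre under the D1 dopamine receptor promoter acts in neurons that carry this receptor. By this design, striatal cells without the receptor would keep the gene, but the values do not show where the deletion took place. The cell type given in the labels is the medium spiny neuron, which forms the output of the striatum. All 10 medium spiny neuron markers were above the percentile in every array, but so were all 9 astrocyte and all 7 oligodendrocyte markers, and 12 or 13 of 13 microglial markers, so the RNA was not that of medium spiny neurons alone. In such tissue, fewer cells of a type and less RNA per cell cannot be told apart.

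Rab proteins switch between a GTP-bound form on a membrane and a GDP-bound form that is drawn off into the cytosol, and each one marks a set of vesicles or organelles. Exchange factors load GTP, activating proteins promote its hydrolysis, and effectors recruited by the GTP form dock, move or fuse the vesicle. In neurons the Rab3 proteins sit on synaptic vesicles and take part in transmitter release, whereas in phagocytes Rab proteins of the endosomal pathway guide the maturation of phagosomes towards lysosomes. Of the 50 GTPases, 8 were grouped as secretory, 24 as endosomal or phagosomal, 14 as acting in the Golgi, the endoplasmic reticulum or post-Golgi traffic, and 4 as other.

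Rrn3 itself had log2 values of 6.90, 6.96 and 6.91 in mutants and 8.0, 7.97 and 8.2 in controls at 9 weeks, and of 7.72, 7.58 and 7.18 in mutants and 7.96, 7.54 and 8.04 in controls at 13 weeks. Mutants and controls separated at 9 weeks and overlapped at 13 weeks, and it is not known whether this probe set lies inside the deletion. Control mouse 3 at 13 weeks stood apart, with correlations of 0.936 and 0.944 to the other controls of its age. In the other groups, the lowest correlation of an array to another of its group was 0.973 to 0.990. By Xist and Eif2s3y, all 3 mutants at 13 weeks and 1 mouse of each other group were female.

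The 13-week comparison asked which Rab genes differed in the later mutants. Of the 48 members, 11 were higher and 13 lower in mutants than in controls (limma, Benjamini-Hochberg adjusted p under 0.05 over all 8256 genes tested). The 24 make up 50% of the members, against 45.3% of all genes, 23.4% higher and 21.9% lower, so the number of calls is close to the background. The values of mutants and controls did not overlap in 29 of 48 members (60.4%), against 54.6% of all genes. By role, 0 rose and 3 fell of 5 secretory members, 5 rose and 4 fell of 20 endosomal or phagosomal members, 4 rose and 3 fell of 14 Golgi members, 0 rose and 2 fell of 4 other GTPases, and 2 rose and 1 fell of 4 regulators. The median difference was -0.66 log2 over the secretory and 0.17 over the endosomal members, against 0.0033 over all genes.

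**Figure D1:**
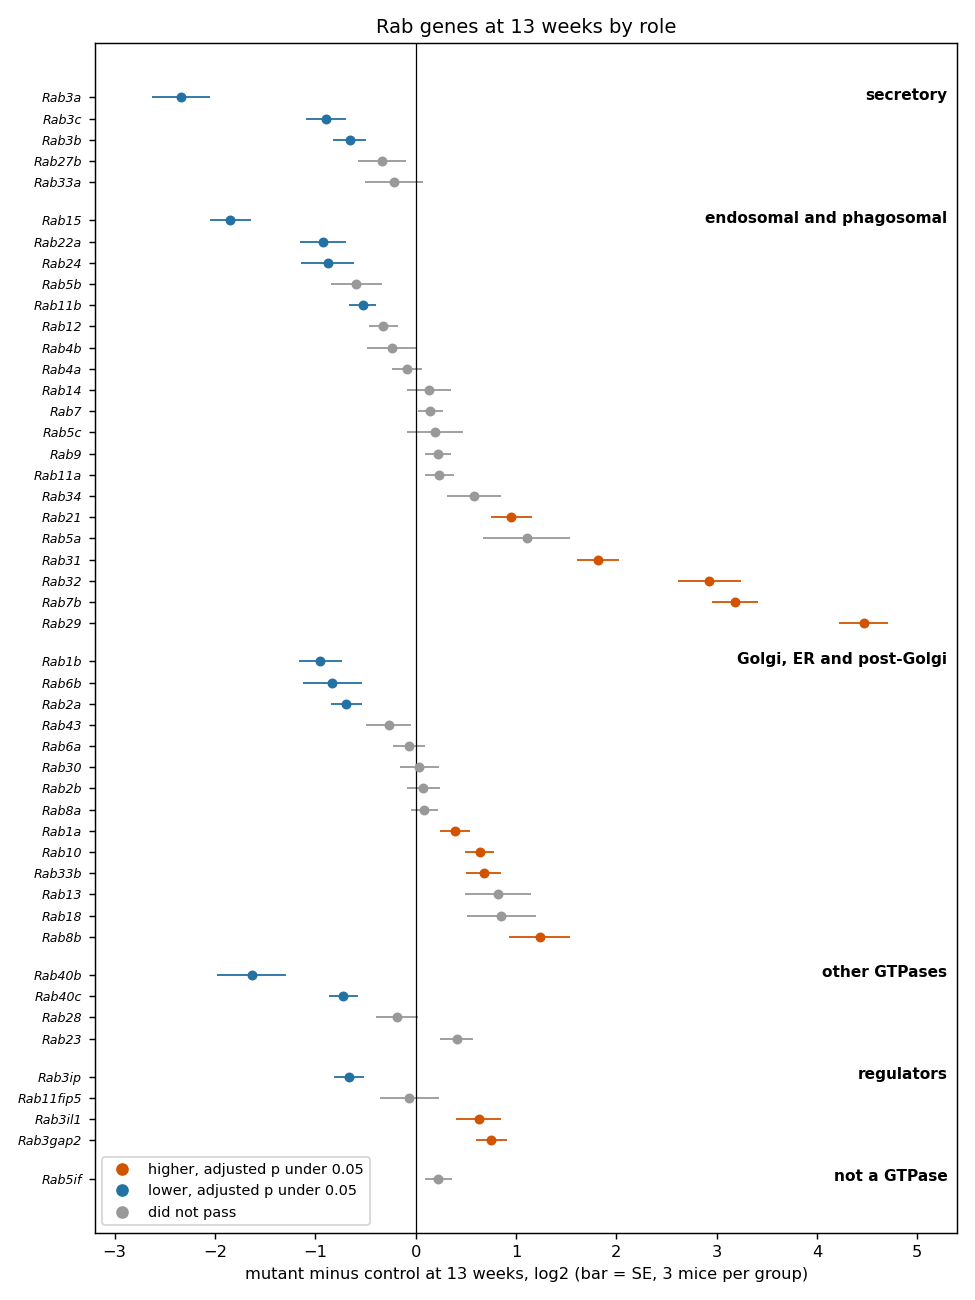
Difference of mutants and controls at 13 weeks (log2, point) with its standard error (bar) for the 48 tested members, sorted within each role; n = 3 mice per group. Orange members were higher and blue ones lower at an adjusted p under 0.05. The 5 secretory members all lie left of 0, while the endosomal and phagosomal members run from -1.85 to 4.47.

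Promoter sequences are shown for the 2 members of each direction with the largest 13-week difference that had an entry in RefSeq's table (GRCm38.p6), because they are the members that differ most in opposite directions. Rab29 and Rab32 rose and Rab3a and Rab15 fell. Rab7b, whose rise lay between those of Rab29 and Rab32, had no entry. Each window runs from 250 bases before to 50 after an annotated start, 5′ to 3′ on the gene's strand. Rab3a has 2 and Rab15 4 windows in the table, of which the first is given. The windows are chr1:131867027-131867326 (plus strand) for Rab29, chr10:10558158-10558457 (minus strand) for Rab32, chr8:70754453-70754752 (plus strand) for Rab3a and chr12:76822475-76822774 (minus strand) for Rab15. Capitals mark matches, on either strand, to the motifs named after the sequences.
Rab29: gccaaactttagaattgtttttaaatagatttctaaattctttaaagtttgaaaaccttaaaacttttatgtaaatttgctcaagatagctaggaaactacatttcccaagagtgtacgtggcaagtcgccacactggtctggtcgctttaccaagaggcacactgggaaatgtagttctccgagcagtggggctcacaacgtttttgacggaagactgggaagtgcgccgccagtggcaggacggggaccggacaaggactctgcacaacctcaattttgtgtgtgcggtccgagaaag
Rab32: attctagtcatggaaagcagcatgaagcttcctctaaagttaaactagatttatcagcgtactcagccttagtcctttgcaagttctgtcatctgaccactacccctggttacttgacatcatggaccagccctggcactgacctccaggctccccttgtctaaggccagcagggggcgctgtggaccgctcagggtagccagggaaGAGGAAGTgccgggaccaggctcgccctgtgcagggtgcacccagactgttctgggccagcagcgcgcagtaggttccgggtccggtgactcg
Rab3a: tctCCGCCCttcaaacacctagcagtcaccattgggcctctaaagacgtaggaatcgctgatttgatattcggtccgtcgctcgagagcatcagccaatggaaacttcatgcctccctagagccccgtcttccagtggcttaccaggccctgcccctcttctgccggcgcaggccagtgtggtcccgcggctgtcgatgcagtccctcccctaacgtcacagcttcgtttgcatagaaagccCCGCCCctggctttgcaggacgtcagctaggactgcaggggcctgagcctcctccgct
Rab15: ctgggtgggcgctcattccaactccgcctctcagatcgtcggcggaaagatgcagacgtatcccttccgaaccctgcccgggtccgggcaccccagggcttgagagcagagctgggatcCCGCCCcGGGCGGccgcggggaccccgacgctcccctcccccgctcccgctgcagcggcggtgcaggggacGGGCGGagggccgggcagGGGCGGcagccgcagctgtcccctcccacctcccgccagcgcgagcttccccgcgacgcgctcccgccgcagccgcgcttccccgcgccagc

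Motifs were searched by their letters on both strands. The GC box GGGCGG, the core of Sp1 sites, was matched 4 times in the Rab15 window and 2 times in that of Rab3a, and not in those of Rab29 or Rab32. It occurs in 35.7% of all 32851 mouse windows of this length and in 44 of the 64 windows of the members. The only other match in the 4 sequences was 1 GAGGAAGT, an ETS site of the kind PU.1 binds, in the Rab32 window. That motif is held by 3.2% of all windows and by 3 of the members' 64. CACGTG, the core of the lysosomal CLEAR element, was found in 9 of the 64 windows and in 7.15% of all, TGACGTCA, the cAMP response element, in 2 and 1.79%, and GAAANNGAAA, the interferon-stimulated response element, in 0 and 3.44%. No printed sequence held more than 1 of the 5 motifs, so no matches to different motifs overlapped in them. The Rab15 window had a GC content of 76.3%, that of Rab3a 60%, that of Rab32 57.3% and that of Rab29 45.3%. A match is a string of letters and not a measured binding site.

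Among the secretory members the Rab3 genes, whose products ride on synaptic vesicles, were lower in 13-week mutants. Rab3a, the main Rab3 of brain synapses, had log2 values of 8.88, 8.92 and 9.86 in mutants and 11.26, 11.28 and 12.13 in controls. The groups were far apart, and within each group mouse 3 was the highest. Rab3a fell by 2.34 ± 0.29 (SE, n = 3 per group), a 5.05-fold lower value in mutants (limma adjusted p = 5.64e-05).

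Rab3c, a close relative on synaptic vesicles, had values of 7.65, 7.66 and 7.93 in mutants and 8.82, 8.53 and 8.57 in controls, a fall of 0.89 ± 0.20 (adjusted p = 0.00311). Rab3b, a Rab3 that also serves hormone-secreting cells, had values of 8.67, 8.59 and 8.56 in mutants and 9.18, 9.09 and 9.52 in controls, a fall of 0.66 ± 0.17 (adjusted p = 0.00677). In both genes every mutant lay below every control, and a second probe set of Rab3c fell by 1.12 (adjusted p = 0.00244). Rab27b, a GTPase of secretory granules and exosomes, had 6.88, 6.91 and 7.26 in mutants and 7.78, 7.37 and 6.91 in controls, and Rab33a, which acts on post-Golgi vesicles in axons, had 8.43, 8.59 and 8.95 in mutants and 9.18, 9.34 and 8.10 in controls. Their groups overlapped through control mouse 3 alone, whose values lay within or below those of the mutants in both genes. The differences were -0.34 (adjusted p = 0.268) and -0.22 (adjusted p = 0.564). Without control mouse 3, Rab27b differed by -0.56 (adjusted p = 0.0541) and Rab33a by -0.60 (adjusted p = 0.0214). That fit sets female mutants against male controls at 13 weeks, so genotype and sex cannot be told apart in it. Rab33a lies on the X chromosome.

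**Figure D2:**
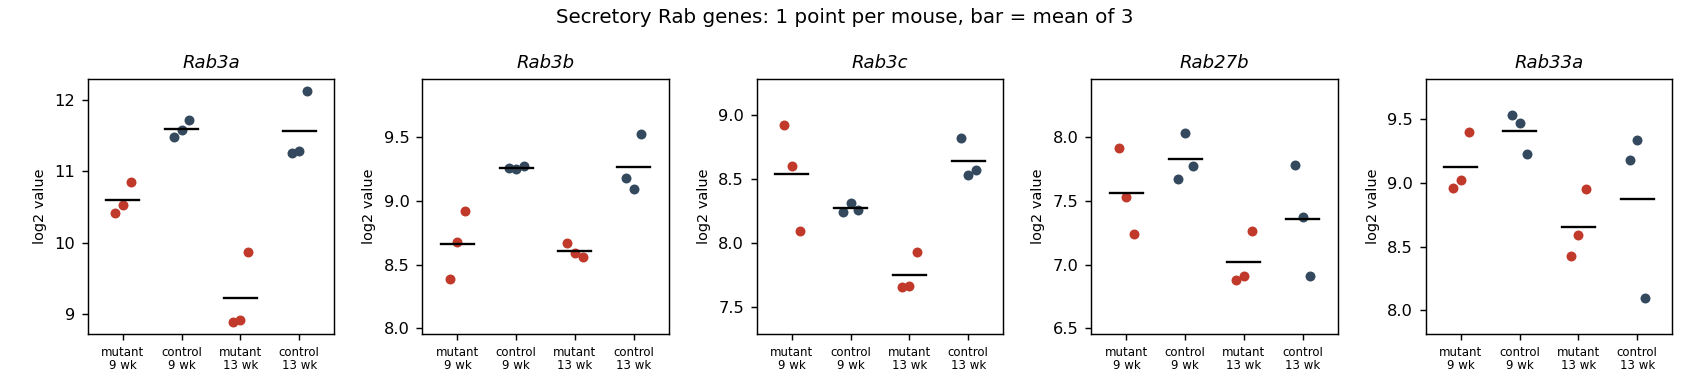
Deposited log2 values of the 5 tested secretory Rab genes, 1 point per mouse and a bar at the mean of 3, for mutants (red) and controls (dark) at each age; each panel has its own scale, which does not start at 0. Rab3a, Rab3b and Rab3c of the 13-week mutants lie below all controls of that age, and Rab27b and Rab33a overlap.

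The mean log2 value over the 5 secretory members was 8.10, 8.13 and 8.51 in the 13-week mutants and 9.24, 9.12 and 9.05 in controls, with no overlap. Neuronal markers were also lower in these mutants. The mean log2 level of 12 neuron markers was 9.38 to 9.90 in 13-week mutants and 10.52 to 11.04 in controls, and 11 of the 12 were lower. All 10 medium spiny neuron markers were lower too, with a median difference of -1.99, and their part in the Rab3 result was not tested. Mutant mouse 3 was the highest of the 3 mutants in both marker means and for Rab3a, Rab3c, Rab27b and Rab33a. For Rab3b it was the lowest (8.56, against 8.67 and 8.59). Among the 13-week controls, mouse 3 had the highest neuron marker mean (11.04) and the lowest secretory mean (9.05).

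The 4 largest rises were those of members grouped as endosomal or phagosomal. Rab29 was placed there as a late endosome member, although it also acts at the trans-Golgi. Rab29, a GTPase of the trans-Golgi and stressed lysosomes known to recruit the kinase LRRK2 in mouse and human cells, had 9.33, 9.05 and 8.66 in mutants and 4.16, 4.73 and 4.75 in controls at 13 weeks. The groups were far apart, and all arrays of both lay above the percentile. Rab29 rose by 4.47 ± 0.25 (SE, n = 3 per group), a 22.1-fold difference (limma adjusted p = 6.45e-08).

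Rab7b, which directs traffic from endosomes to the trans-Golgi and is known from macrophages and dendritic cells, had 6.27, 6.61 and 5.94 in mutants and 3.02, 3.07 and 3.18 in controls. All 3 controls lay below the percentile, where GCRMA compresses values, so that background correction bears on the size of the rise of 3.18 ± 0.23 (9.08-fold, adjusted p = 7.24e-07). Rab32, which acts on lysosome-related organelles and on phagosomes holding bacteria, had 6.58, 6.82 and 5.61 in mutants and 3.56, 2.96 and 3.71 in controls. The groups were separate, and 1 of the 3 controls lay below the percentile. Rab32 rose by 2.93 ± 0.31, or 7.60-fold (adjusted p = 1.77e-05).

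Rab31, which carries cargo between the trans-Golgi and endosomes, had 10.29, 10.39 and 10.22 in mutants and 8.77, 8.74 and 7.93 in controls, a rise of 1.82 ± 0.21 or 3.53-fold (adjusted p = 3e-05). A second probe set of Rab31 rose by 1.53 (adjusted p = 0.00184). Rab21, which moves integrins through early endosomes, had 9.85, 9.82 and 9.55 in mutants and 9.15, 8.86 and 8.35 in controls, a rise of 0.95 ± 0.21 (adjusted p = 0.00285). Neither gene's groups overlapped, but a second probe set of Rab21 showed a difference of 0.29 (adjusted p = 0.144). Rab5a, the best known early endosome Rab, had 11.37, 11.37 and 10.98 in mutants and 11.05, 10.56 and 8.79 in controls. The groups overlapped, and the difference of 1.11 ± 0.44 did not pass (adjusted p = 0.0565). Without control mouse 3, the lowest of the 6, it was 0.44 (adjusted p = 0.0968).

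Other members of this role fell. Rab15, a neuron-enriched Rab that slows endocytic recycling, had 8.64, 8.36 and 9.07 in mutants and 10.29, 10.62 and 10.70 in controls. Rab15 fell by 1.85 ± 0.20, a 3.6-fold lower value (adjusted p = 2.1e-05), and no mutant reached the lowest control. Rab22a, which sorts cargo in early endosomes, had 7.30, 7.12 and 7.35 in mutants and 7.89, 7.86 and 8.79 in controls, a fall of 0.92 ± 0.23 (adjusted p = 0.00684). These groups were separate as well, but a second probe set of Rab22a differed by -0.05 (adjusted p = 0.796). Rab11b, a Rab of recycling endosomes, had 10.28, 10.26 and 10.42 in mutants and 10.98, 10.88 and 10.69 in controls, a fall of 0.53 ± 0.13 (adjusted p = 0.00628). Rab24, linked to autophagy, had 8.21, 8.29 and 8.77 in mutants and 8.77, 9.14 and 9.99 in controls, a fall of 0.88 ± 0.27 (adjusted p = 0.0182). Rab24's highest mutant met its lowest control, and its call was lost without mutant mouse 1 or mutant mouse 2 of that age (adjusted p up to 0.0722). Without control mouse 3, the highest of the 6, Rab24 passed with a fall of 0.53 (adjusted p = 0.0323).

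**Figure D3:**
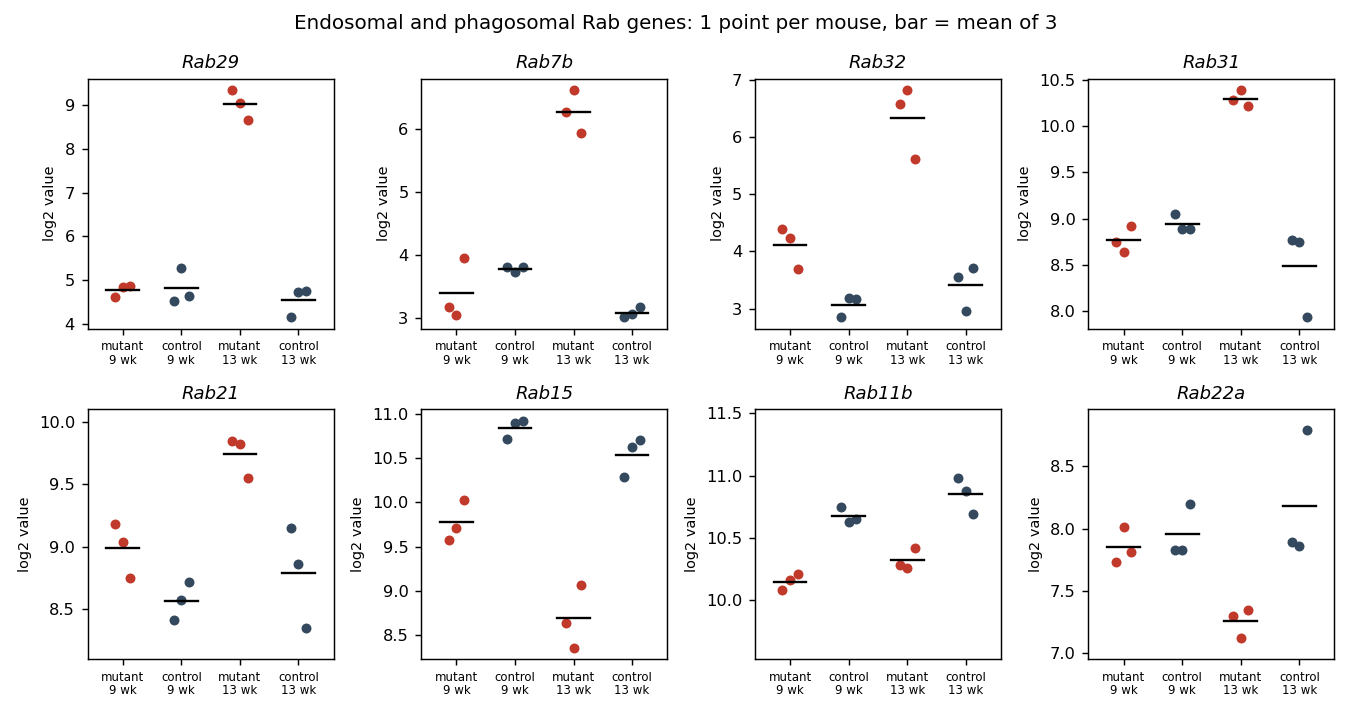
Deposited log2 values of 8 endosomal and phagosomal Rab genes, 1 point per mouse and a bar at the mean of 3, for mutants (red) and controls (dark) at each age; scales differ between panels and do not start at 0. Rab29, Rab7b and Rab31 are high in the 13-week mutants alone, and Rab15 and Rab11b are below the controls of the same age at both ages.

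The remaining 11 endosomal members tested at 13 weeks, among them Rab7, the late endosome Rab, and Rab5c, Rab9, Rab11a and Rab14, differed by -0.59 to 1.11 and did not pass. The mean log2 value over the 20 endosomal members was 8.82, 8.82 and 8.77 in 13-week mutants and 8.31, 8.29 and 8.24 in controls, without overlap. That mean includes the large rises of Rab29, Rab7b, Rab32 and Rab31, and the median difference was 0.17. Microglial markers were higher in the 13-week mutants. The mean log2 level of 13 microglial markers was 10.78 to 11.22 in 13-week mutants and 8.27 to 8.59 in controls, and 12 of the 13 rose, by a median of 2.58 over the list. Of 9 astrocyte markers 8 rose (median 1.60), and their mean was 11.24 to 11.42 in mutants and 9.24 to 9.32 in controls. Oligodendrocyte markers rose in 2 of 7 (median 0.67) and endothelial markers in 3 of the 4 tested of 7, and the part of these cells in the Rab result was not tested.

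Golgi, endoplasmic reticulum and post-Golgi members changed in both directions. Rab8b, which delivers vesicles to the plasma membrane, had 8.28, 8.46 and 8.05 in 13-week mutants and 7.61, 7.33 and 6.14 in controls, a rise of 1.24 ± 0.31 or 2.36-fold (adjusted p = 0.00605). Rab10, an exocytic Rab and a substrate of LRRK2, had 11.65, 11.74 and 11.75 in mutants and 11.16, 11.03 and 11.04 in controls, a rise of 0.64 ± 0.14 (adjusted p = 0.00349). Rab33b, which binds the autophagy protein Atg16l1, had 9.42, 9.57 and 9.72 in mutants and 9.15, 9.04 and 8.49 in controls, a rise of 0.68 ± 0.18 (adjusted p = 0.00856). All 3 genes were higher in every mutant than in any control, with control mouse 3 lowest in Rab8b and Rab33b. Without that mouse the rise of Rab8b was 0.79 (adjusted p = 0.00259). The other 2 probe sets of Rab10 differed by 0.70 (adjusted p = 0.0487) and 0.33 (adjusted p = 0.292). Rab1a, which acts between the endoplasmic reticulum and the Golgi, rose by 0.39 ± 0.15 (adjusted p = 0.048), a call lost in 10 of the 12 fits that left out 1 array (adjusted p up to 0.124).

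Rab1b, the close relative of Rab1a with the same step of traffic, went the other way, with 7.12, 7.36 and 7.28 in mutants and 7.95, 7.98 and 8.68 in controls. The groups were separate, and Rab1b fell by 0.95 ± 0.22 (adjusted p = 0.00368). Rab6b, the neuronal form of the Golgi Rab6, had 10.71, 10.92 and 11.32 in mutants and 12.31, 12.07 and 11.06 in controls, a fall of 0.83 ± 0.29 (adjusted p = 0.0351). Control mouse 3 lay within the mutants' range for Rab6b, and the call was lost without control mouse 1, control mouse 2, mutant mouse 1 or mutant mouse 2 of that age (adjusted p up to 0.126). Its relative Rab6a did not pass. Rab2a, which acts at the endoplasmic reticulum to Golgi boundary, had 11.84, 11.87 and 11.66 in mutants and 12.54, 12.30 and 12.61 in controls, and fell by 0.69 ± 0.15 (adjusted p = 0.00331). Rab2a's probe set and 5 other members' are of types that can share sequence with other transcripts, but 5 of its 6 further probe sets could be tested, and all 5 passed in the same direction, at -0.88 to -0.45.

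Of the other GTPases, Rab40b and Rab40c, which carry a SOCS box and join ubiquitin ligases, were lower in 13-week mutants. Rab40b had 7.80, 8.36 and 8.39 in mutants and 10.40, 10.20 and 8.86 in controls, a fall of 1.64 ± 0.34 or 3.11-fold (adjusted p = 0.00222). Rab40c had 8.59, 8.58 and 8.58 in mutants and 9.20, 9.35 and 9.36 in controls, a fall of 0.72 ± 0.14 (adjusted p = 0.00155). Neither overlapped, and their second probe sets fell by 3.08 (adjusted p = 2.75e-05) and 1.34 (adjusted p = 0.0256). Rab23, a negative regulator of Hedgehog signalling, and Rab28, a ciliary Rab, did not pass, although a second probe set of Rab23 rose by 0.72 (adjusted p = 0.0094).

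Among the regulators, Rab3ip, the exchange factor Rabin8 that activates Rab8, had 7.78, 7.97 and 8.16 in 13-week mutants and 8.75, 8.57 and 8.59 in controls, a fall of 0.67 ± 0.15 (adjusted p = 0.00368). Rab3gap2, a subunit of the Rab3 GTPase-activating complex, had 7.47, 7.52 and 7.25 in mutants and 6.88, 6.52 and 6.58 in controls, a rise of 0.75 ± 0.15 (adjusted p = 0.00177). Both genes had separate groups. Rab3il1, another Rab exchange factor, rose by 0.63 ± 0.22 (adjusted p = 0.0379), with mutants at 5.01, 3.96 and 4.34 and controls at 3.91, 3.59 and 3.93, close to the low end of the scale. Rab3il1 did not pass in 9 of the 12 fits that left out 1 array, and without mutant mouse 1 at 13 weeks its difference was 0.34 (adjusted p = 0.152).

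Control mouse 3, which stood apart, was also the only female control at 13 weeks, so without it genotype and sex cannot be told apart at that age. In the fit without it 29 members passed (60.4%, against 47.8% of all genes), 13 higher and 16 lower, and 23 of them were among the 24. Rab1a did not pass (0.26, adjusted p = 0.0933), and Rab11a (0.35), Rab13 (1.12), Rab18 (0.30), Rab28 (-0.48), Rab33a (-0.60) and Rab5b (-0.77) did. With all arrays, a second probe set of Rab11a differed by -0.24 at 13 weeks (adjusted p = 0.39). With a term for sex, whose 13-week information within controls rests on the same mouse, 27 passed (56.2%, against 46.5% of all genes), 15 higher and 12 lower.

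The 9-week comparison asked whether any Rab gene already differed at the earlier age. Of the 48 members, 0 were higher and 3 lower in mutants, which is 6.25% against 5% of all genes, 2.98% lower. Unadjusted, 7 members had p under 0.05. The share of all genes at that threshold was not computed, so the 7 are not read as a result about the members. Groups did not overlap in 16 of 48 members (33.3%), against 35.5% of all genes. The adjusted calls and the count without overlap are thus both close to the background.

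Rab15 had 9.58, 9.71 and 10.03 in 9-week mutants and 10.71, 10.89 and 10.92 in controls, a fall of 1.07 ± 0.20 or 2.09-fold (adjusted p = 0.018). Rab40c had 8.93, 9.19 and 8.75 in mutants and 9.53, 9.69 and 9.62 in controls, a fall of 0.66 ± 0.14 (adjusted p = 0.0277), and Rab11b had 10.08, 10.16 and 10.21 in mutants and 10.75, 10.63 and 10.65 in controls, a fall of 0.53 ± 0.13 (adjusted p = 0.0438). These 3 were lower in every mutant than in any control, and the same 3 genes were lower at 13 weeks. All 3 calls were lost without any 1 of the 9-week controls or without mutant mouse 1 or 2 of that age, with an adjusted p of up to 0.0784 for Rab15, 0.0992 for Rab40c and 0.152 for Rab11b. Without control mouse 3 at 13 weeks, 6 members passed at 9 weeks, which is 12.5% against 16.4% of all genes in that fit.

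Rab3a had 10.41, 10.53 and 10.85 in 9-week mutants and 11.48, 11.58 and 11.72 in controls, a separate pair of groups whose difference of -0.997 ± 0.29 did not pass (adjusted p = 0.0692). It passed in some settings, among them fits without control mouse 3 at 13 weeks (adjusted p = 0.0179), without mutant mouse 3 at 13 weeks (adjusted p = 0.0344) and a fit to the 9-week groups alone (adjusted p = 0.0127). It did not pass without the filter on low values (adjusted p = 0.118), or without any 1 of the 6 arrays at 9 weeks (adjusted p of 0.094 to 0.206). Rab3b had 8.39, 8.68 and 8.92 in mutants and 9.26, 9.25 and 9.27 in controls, also separate, with a difference of -0.60 ± 0.17 (adjusted p = 0.0611). Rab3c had 8.92, 8.60 and 8.09 in mutants and 8.24, 8.31 and 8.26 in controls, and its groups overlapped (0.27, adjusted p = 0.484). Averaged over the 5 secretory members, the 9-week mutants lay at -0.35, -0.40 and -0.37 from their control mean. The 12 neuron markers had a median difference of -0.39 at this age with 0 past the test, and the 13 microglial markers also had 0 past it.

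On the endosomal side, Rab29 had 4.61, 4.84 and 4.87 in 9-week mutants and 4.54, 5.29 and 4.64 in controls, and Rab31 had 8.75, 8.64 and 8.92 in mutants and 9.05, 8.89 and 8.89 in controls. Both genes' groups overlapped. So did those of Rab7b, with 3.18, 3.06 and 3.95 in mutants and 3.82, 3.73 and 3.82 in controls (-0.39, adjusted p = 0.36). Only 1 of these mutants but all 3 controls lay above the percentile, so low values bear on Rab7b at this age too. Rab32 had 4.39, 4.24 and 3.69 in mutants and 2.85, 3.19 and 3.17 in controls. All 3 mutants lay above all 3 controls and above the percentile, and no control did, but the difference of 1.04 ± 0.31 did not pass (adjusted p = 0.0786).

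The genotype effect at 13 weeks was then tested against that at 9 weeks. It was more positive at 13 weeks for 5 members, against 12.1% of all genes, and more negative for 3, against 6.38%, together 16.7% of the 48. Rab29 gained 4.52 ± 0.35 (adjusted p = 2.98e-06), Rab7b 3.58 ± 0.33 (adjusted p = 1.3e-05), Rab31 1.99 ± 0.29 (adjusted p = 0.00058), Rab32 1.89 ± 0.44 (adjusted p = 0.0115) and Rab10 0.80 ± 0.20 (adjusted p = 0.0166). The effects of Rab3a (-1.34 ± 0.41, adjusted p = 0.0408), Rab3c (-1.16 ± 0.28, adjusted p = 0.0133) and Rab3ip (-0.95 ± 0.21, adjusted p = 0.00925) were more negative. For Rab15 the change between ages of -0.78 did not pass (adjusted p = 0.0802), and neither did that of Rab8b or Rab40b. Second probe sets of Rab40b (-2.36, adjusted p = 0.00599) and Rab24 (-1.09, adjusted p = 0.0251) passed, although their main ones did not. The second probe set of Rab3c passed as well (-1.38, adjusted p = 0.0145). Other probe sets of Rab31 (0.89, adjusted p = 0.188) and Rab10 (0.48, adjusted p = 0.41, and 0.42, adjusted p = 0.439) did not pass. The Rab3a call was lost in 9 of the 12 fits that left out 1 array (adjusted p up to 0.109), while the other 7 calls were kept in all 12.

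**Figure D4:**
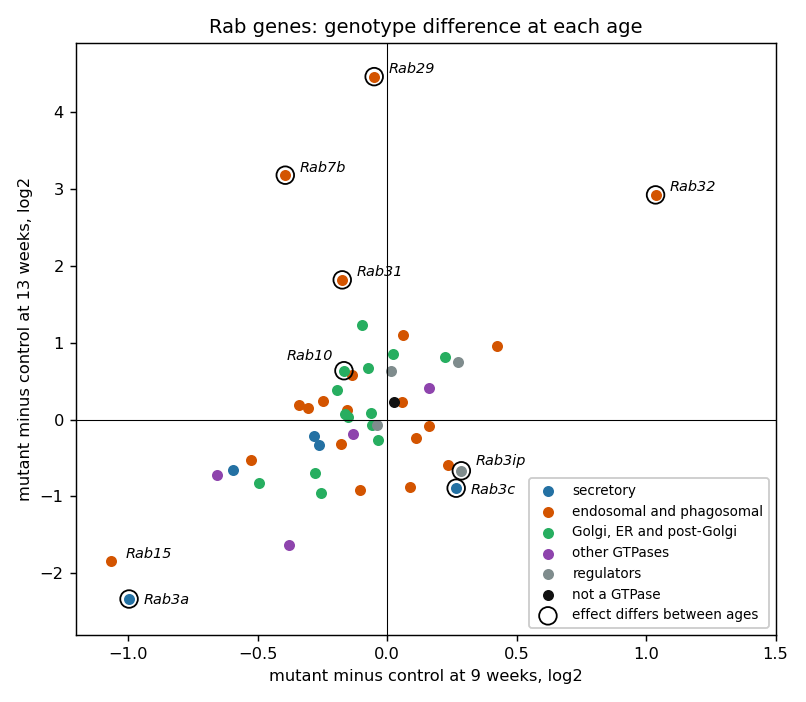
Difference of mutants and controls for the 48 tested members at 9 weeks (horizontal, log2) and at 13 weeks (vertical, log2), coloured by role, 3 mice per group; the axes have different scales. Circled genes are the 8 whose effect differed between ages at an adjusted p under 0.05. Rab29, Rab7b and Rab31 lie high near the vertical axis, and Rab15 and Rab3a lie low on the left.

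Within mutants, 8 members were higher and 8 lower at 13 than at 9 weeks (33.3%), against 16.1% of all genes higher and 16.6% lower. Without control mouse 3 at 13 weeks, a mouse of neither group, 25 passed (52.1%, against 46.5% of all genes in that fit). The higher ones were Rab29 (4.24), Rab7b (2.88), Rab32 (2.23), Rab31 (1.53), Rab8b (1.17), Rab21 (0.75), Rab11a (0.46) and Rab10 (0.42). The lower ones were Rab40b (-1.72), Rab3a (-1.38), Rab3ip (-1.23), Rab15 (-1.08), Rab6b (-1.04), Rab24 (-0.91), Rab3c (-0.79) and Rab4a (-0.48). Second probe sets of Rab21 (-0.053, adjusted p = 0.828), Rab11a (-0.097, adjusted p = 0.782) and Rab4a (-0.22, adjusted p = 0.712) did not pass. Further tested probe sets of Rab31, Rab10, Rab40b, Rab24 and Rab3c passed in the direction of the main one. Within controls 0 of 48 members passed in limma, against 0.145% of all genes, with differences from -0.77 to 0.77 and a lowest adjusted p of 0.128. Unadjusted, 10 members had p under 0.05. The share of all genes at that threshold was not computed, so the 10 are not read as a result about the members. These comparisons share the mutants or controls with those above and are not separate evidence. All 3 mutants at 13 weeks but 1 mutant at 9 weeks were female, so age in mutants is partly mixed with sex. With a term for sex, 14 members passed for age in mutants (29.2%, against 30.4% of all genes).

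Genes that switch Rab proteins or carry out their work were taken from a list of 54 names, of which 36 were on the array and 29 were tested. At 13 weeks 4 were higher and 8 lower, with a median of -0.18. These are 41.4% of the 29, against 45.3% of all genes, so the list as a whole was called no more often than the background, and the genes below are given as single values. At 9 weeks 1 was higher and 1 lower, 6.9% against 5%. Rin1, an exchange factor for Rab5 expressed in forebrain neurons, fell by 2.97 ± 0.38 (adjusted p = 6.67e-05), with 6.23, 6.52 and 7.38 in mutants and 9.17, 9.25 and 10.61 in controls. Its relative Rin2 rose by 1.48 ± 0.21 (adjusted p = 0.000126), with 8.52, 8.77 and 8.40 in mutants and 7.06, 7.46 and 6.73 in controls. These 2 exchange factors for Rab5 thus differed in opposite directions, each without overlap.

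Rph3a and Unc13a were among the 4 genes of the list with the largest falls at 13 weeks. Rph3a, the Rab3a effector rabphilin, had 4.04, 3.81 and 4.70 in mutants and 6.49, 6.79 and 5.50 in controls, a fall of 2.08 ± 0.52 (adjusted p = 0.00651). Unc13a, a vesicle priming factor in the active zone complex with Rab3 and RIM, had 5.97, 5.87 and 6.79 in mutants and 7.59, 7.56 and 8.42 in controls, a fall of 1.65 ± 0.30 (adjusted p = 0.000997). Both had separate groups. Lrrk2, the kinase that Rab29 recruits, had 7.46, 7.41 and 7.61 in 13-week mutants and 9.14, 9.14 and 9.27 in controls, a fall of 1.69 ± 0.13 (adjusted p = 1.08e-06). At 9 weeks Lrrk2 had 8.73, 8.76 and 8.64 in mutants and 10, 10.04 and 9.85 in controls, a fall of 1.25 ± 0.13 (adjusted p = 0.00118). Lrrk2 was lower in every mutant than in any control of its age.

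The smaller rises at 13 weeks were those of Gdi2, which draws GDP-bound Rab proteins off membranes (0.59 ± 0.14, adjusted p = 0.00578), Ccz1, part of the exchange factor for Rab7 (0.58 ± 0.15, adjusted p = 0.00789), and Evi5, a Rab11 partner (0.40 ± 0.15, adjusted p = 0.0429). Appl1, an effector of Rab5 and the only gene of the list higher at 9 weeks, had 8.12, 7.95 and 7.92 in mutants and 7.15, 7.57 and 7.25 in controls at that age, a rise of 0.67 ± 0.17 (adjusted p = 0.0424). At 13 weeks Appl1 showed -0.16 (adjusted p = 0.445), short of the threshold.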

How the data were processed

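Striatal RNA of 12 mice was measured on Affymetrix arrays. The deposited values are log2 signals, which the authors made with GCRMA per the submitters' processing notes (version not given). They were used as deposited, on 22690 probe sets, of which 20380 carry 1 gene symbol, 691 several and 1555 none; 64 control probe sets and those without a single symbol were left out. One fit in R 4.3.3 with limma 3.58.1 (lmFit, eBayes) gave each group 1 coefficient, with 8 residual degrees of freedom. Of 12393 genes, 8256 passed the filter, at percentiles of 3.51 to 3.81. Two-sided p-values were adjusted over all of these (Benjamini-Hochberg). A fold is 2 to the power of the log2 difference, and 3 mice per group limit the precision. All 56 members matched RefSeq symbols and 48 had a promoter entry. Named in full are the members past the test at 9 weeks, the 8 largest rises and 8 largest falls at 13 weeks, up to 5 each way of those whose effect differed between ages, and the secretory members; list genes are the 4 largest each way at 13 weeks and any at 9 weeks. Rab5a, Rab2a, Rab1a and Rab3il1 were added after their values were seen. Members and lists were chosen with earlier results of these data known. The labels call the arrays biological replicates, and pooling is not stated. Alternatives were other scalings, filters, probe set summaries and thresholds, array weights, a term for sex, a replicate block and each array left out. The procedure was tested on simulated data with 200 changed genes. It recovered 53% to 56% of changes of 1 log2 and 92.5% to 93.5% of changes of 2 log2. False calls made up 3.11% to 7.02% of the calls. A member that did not pass can therefore still differ.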

Additional observations from a re-analysis of the deposited data

Results flagged for a closer look

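A test of the difference between ages marked 8 members whose genotype effect at 13 weeks differed from that at 9 weeks. These are 16.7% of the members tested, against 18.4% of all genes, so the number is close to the background. The effect was more positive at 13 weeks for Rab29 (4.52), Rab7b (3.58), Rab31 (1.99), Rab32 (1.89) and Rab10 (0.80). It was more negative for Rab3a (-1.34), Rab3c (-1.16) and Rab3ip (-0.95). The Rab3a call was lost in 9 of the 12 fits that left out 1 array, and other probe sets of Rab31 and Rab10 did not pass. All are log2 differences of differences over 3 mice per group, and no explanation was weighed.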

How the results depend on the processing

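With 1 array left out in turn, 20 of the 24 calls at 13 weeks were kept in all 12 fits (not those of Rab1a, Rab3il1, Rab6b and Rab24), 7 of 8 between ages and 0 of 3 at 9 weeks. The number of members past the test ran from 0 to 6 at 9 weeks, 20 to 29 at 13 weeks (9 to 13 higher, 11 to 16 lower), 7 to 12 between ages, 10 to 25 for age in mutants and 0 to 0 for age in controls. The share of all genes in these fits ran from 0.751% to 16.4% at 9 weeks and from 35.2% to 47.8% at 13 weeks. Between ages it ran from 13% to 23.6%, so the background moved as well. The 13-week medians ran from -0.74 to -0.60 for secretory and from 0.11 to 0.21 for endosomal members. Array weights, whose estimation stopped before convergence, gave 22 members at 9 weeks, 18 higher at 13 weeks, 26 between ages, 34 for age in mutants, 11 for age in controls, medians of -0.75 and 0.060, and 1 reversal, Rab11fip5 at 13 weeks (0.39, adjusted p = 0.0351). An adjusted p under 0.01 left 0 at 9 weeks, 4 between ages and 9 for age in mutants. The compared groups alone gave 6 at 9 weeks. A term for sex gave 14 between ages (29.2%, against 21% of all genes) and an endosomal median of 0.22. The mean of probe sets gave an endosomal median of 0.041. No share of all genes was computed for array weights, the 0.01 threshold, the compared groups alone, the unfiltered fit or the replicate block. For age in mutants with 1 array left out, it was computed only without control mouse 3 at 13 weeks (46.5%). Counts without such a share are not read as results about the members. Without the filter the secretory median was -0.28 and 1 member passed for age in controls. Median centring shifted the median of all genes at 13 weeks to -0.16 (0.0033 as deposited), left 9 members higher and 15 lower, put 39.6% of all calls higher (51.6% as deposited), and gave medians of -0.82 and 0.0067. Replicate numbers did not pair the mice (correlations of -0.073 to 0.18 over 6 pairs, 3 mutants closest to their own number), and a replicate block gave 3 members at 9 weeks, 26 at 13 weeks, 10 between ages, 15 for age in mutants and 0 for age in controls. The causes were not tested. Low values limit the folds of Rab7b and Rab32.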
